A study of Mus musculus with 42 samples.

Results

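Glucocorticoid-responsive genes and metallothioneins were described in the liver of pubertal mice, as 8 listed genes found by gene name among the 54532 genes of the read count table. They were Nr3c1, Fkbp5, Tsc22d3, Sgk1, Zbtb16, Lpin1, Mt1, and Mt2. The 42 libraries came from female C57BL/6NHsd mice, which were 3 weeks old when they began 3 weeks on either the AIN93G standard diet (fat at 16% of energy) or a high-fat diet (HFD, 45%), both with soybean oil as the fat. Each diet had 3 mice at each of 7 times of collection, every 4 h from Zeitgeber time (ZT) 0, when the light phase began, to ZT 24, and the dark phase began at ZT 12. The paper states that collection took longer than a day, and the sample labels do not give the day of each mouse. Mice were group-housed with free access to diet, and all were killed under ketamine and xylazine, so every group shared that anaesthesia. Levels are given as CPM, the counts of a gene scaled so that every library has the same total, and each value is 1 mouse.

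Glucocorticoids are adrenal steroids whose blood level follows a daily rhythm and rises with stress and fasting. In liver they bind the glucocorticoid receptor, which is released from a complex of heat shock proteins and immunophilins, enters the nucleus, and binds DNA as a dimer at paired half-sites. Metallothioneins are small cysteine-rich proteins that bind zinc and copper, and their genes respond both to metals, through the metal response element, and to glucocorticoids.

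Of the 42 libraries labelled as liver, 32 (13 AIN93G and 19 HFD) had Alb, which encodes albumin, above 10000 CPM (66434 to 111995 CPM). The other 10 had Alb at 18.7 to 81.0 CPM and Adipoq, the adipocyte hormone adiponectin, at 1455 to 2984 CPM, compared with 0 to 5.01 CPM in the 32. Of these 10 adipocyte-rich libraries, 6 made up the AIN93G groups of ZT 16 and ZT 20 and the other 4 came from ZT 24 (replicates 1 and 2 in both diets), so the diets could be compared in liver at ZT 0, 4, 8, and 12 alone. Total counts were 14592481 to 21368409 per library, and the replicates of each group differed by more than counting noise. At ZT 12, the 6 libraries lay in separate ranges of Arntl (Bmal1), the clock gene that is normally lowest around dusk. Arntl was at 1.03, 43.3, and 47.0 CPM in AIN93G replicates 1 to 3 and at 1.67, 0.898, and 38.4 CPM in HFD replicates 1 to 3, compared with 39.9 to 49.1 CPM in the 6 libraries of ZT 0. The record of AIN93G replicate 2 and that of HFD replicate 3 named the light phase and the other 4 the dark phase, which did not follow Arntl in AIN93G replicate 3. Sample titles carry a number, and at all other times the dark-phase libraries had numbers 1 to 11 on AIN93G and 25 to 36 on the HFD and the light-phase libraries 13 to 24 and 37 to 48. At ZT 12 the 3 low-Arntl libraries had numbers 1, 25, and 27, in the ranges of the dark phase, and the 3 high-Arntl libraries had 14, 16, and 39, in those of the light phase. Whether all 6 were collected at ZT 12 was not tested, and diet values at ZT 12 set AIN93G libraries of which 1 of 3 had low Arntl against HFD libraries of which 2 of 3 did. The 2 liver libraries of ZT 24 had Arntl at 0.745 and 1.11 CPM, far below those of ZT 0, and whether their labelled time holds was not tested either.

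The 8 genes differed widely in level and in how far they varied among the 32 liver libraries. Per kilobase of gene model, the median level was 35.2 CPM for Tsc22d3, 26.99 for Mt1, 17.5 for Nr3c1, 16.6 for Lpin1, 8.67 for Fkbp5, 5.57 for Sgk1, 2.55 for Zbtb16, and 0.288 for Mt2. On this scale the ranges of all neighbours in the order overlapped. From the lowest to the highest liver library, Nr3c1 spanned 1.96-fold, Tsc22d3 5.44-fold, Sgk1 6.12-fold, Fkbp5 9.21-fold, Zbtb16 17.7-fold, Mt1 28.9-fold, and Lpin1 32.9-fold. The receptor gene was thus the most even of the 7 genes with counts in every library, and Lpin1 and Mt1 the most variable. Since whole tissue was sequenced, fewer cells of a type and less RNA per cell cannot be told apart.

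**Figure D1:**
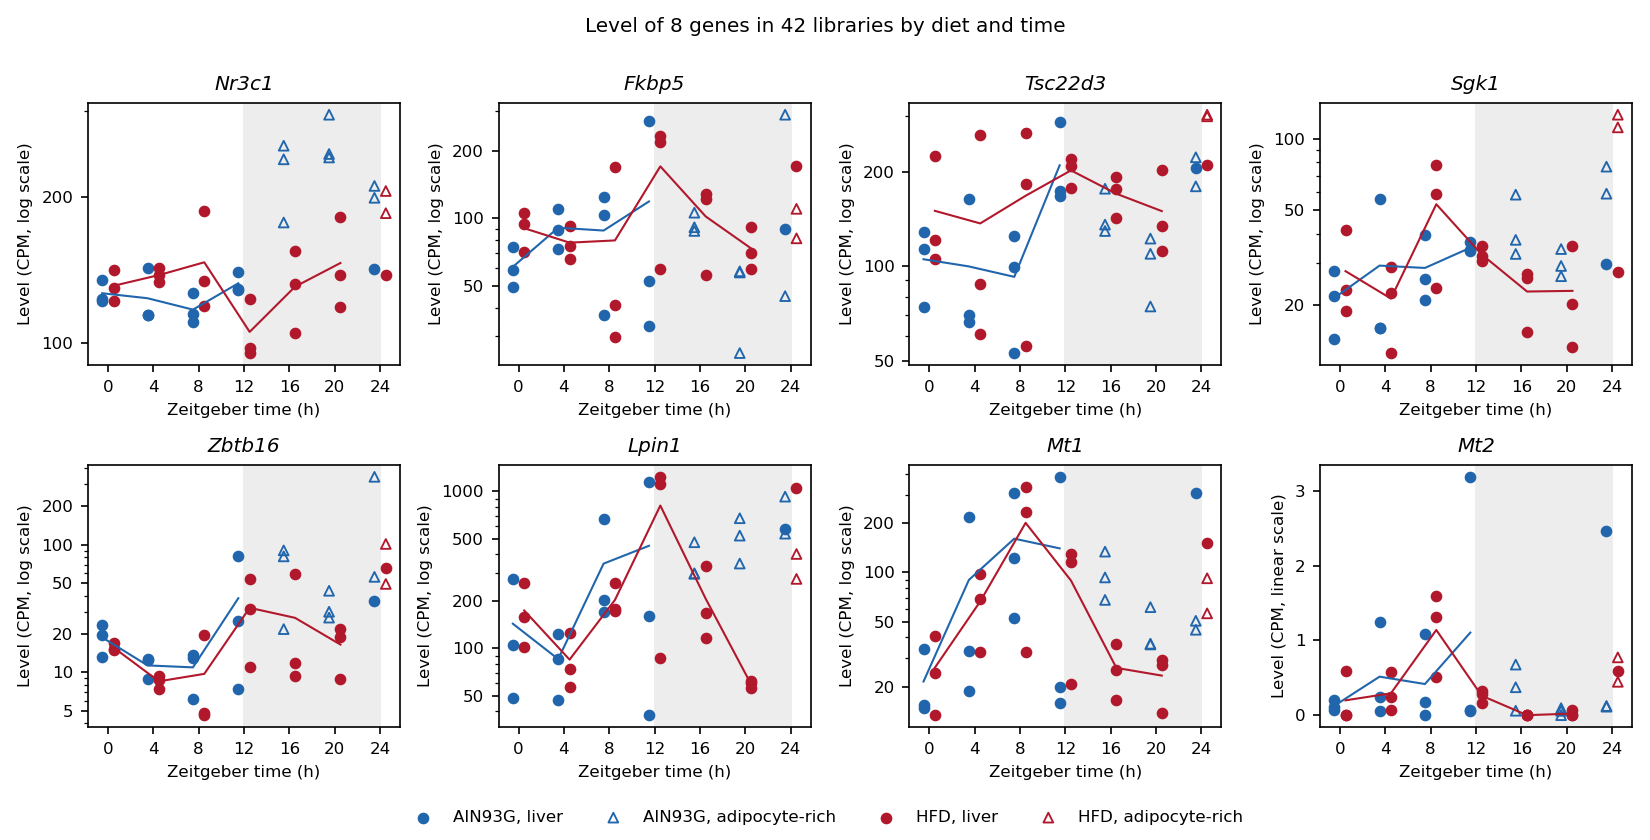
Level of each of the 8 genes (CPM, on a log axis except for Mt2) against Zeitgeber time in hours, with AIN93G in blue, the HFD in red, liver libraries as filled circles, adipocyte-rich libraries as open triangles, lines through the means of 3 liver libraries, and the dark phase shaded. Nr3c1 stayed between 95.5 and 187 CPM in liver, whereas Lpin1 ran from 37.6 to 1238 CPM with the widest scatter at ZT 12.

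No gene of the 8 was shown to differ between the diets. Differences were tested as HFD minus AIN93G with the edgeR quasi-likelihood test on the 32 liver libraries, at a Benjamini-Hochberg adjusted p under 0.05 over 12000 genes whose mean count reached 25. Mt2 did not pass that filter, so 7 of the 8 genes were tested. The test called 0 of 7 in all 6 diet comparisons, whose background over all genes was 0% for ZT 0, ZT 4, and ZT 12, 0.0167% for ZT 8, 0.108% for the mean over ZT 0 to 12, and 0% for the interaction of diet with time. None of these had an unadjusted p under 0.05, and DESeq2 also called 0 of 7 in each. With so few calls among all genes, a count of 0 among 7 sets the 7 apart from nothing.

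The intervals show which sizes of diet difference these libraries could not resolve. Averaged over ZT 0 to 12, the log2 fold change of Nr3c1 was 0.03 (95% interval -0.13 to 0.20). Tsc22d3, which encodes the anti-inflammatory mediator GILZ, had the largest mean difference of the 7, at 0.42 (-0.08 to 0.93, edgeR adjusted p = 0.645). It was 0.20 without HFD replicate 2 of ZT 4, 0.59 without ZT 12, and 0.31 without the ZT 12 libraries with Arntl over 10 CPM. For the remaining 5 it was 0.16 for Fkbp5, 0.16 for Sgk1, -0.29 for Zbtb16, 0.06 for Lpin1, and -0.17 for Mt1. On leaving out each library in turn, the mean ran from -0.14 to 0.57 for Fkbp5, from 0.07 to 0.37 for Sgk1, from -0.56 to 0.05 for Zbtb16, from -0.08 to 0.65 for Lpin1, and from -0.32 to 0.62 for Mt1, so that 1 library set the sign of all but Sgk1 among these 5. The intervals were narrow for Nr3c1 and wide for Lpin1 (-0.83 to 0.95) and Mt1 (-1.21 to 0.87), in which a change of well over 1.5-fold in either direction would not have been seen.

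**Figure D2:**
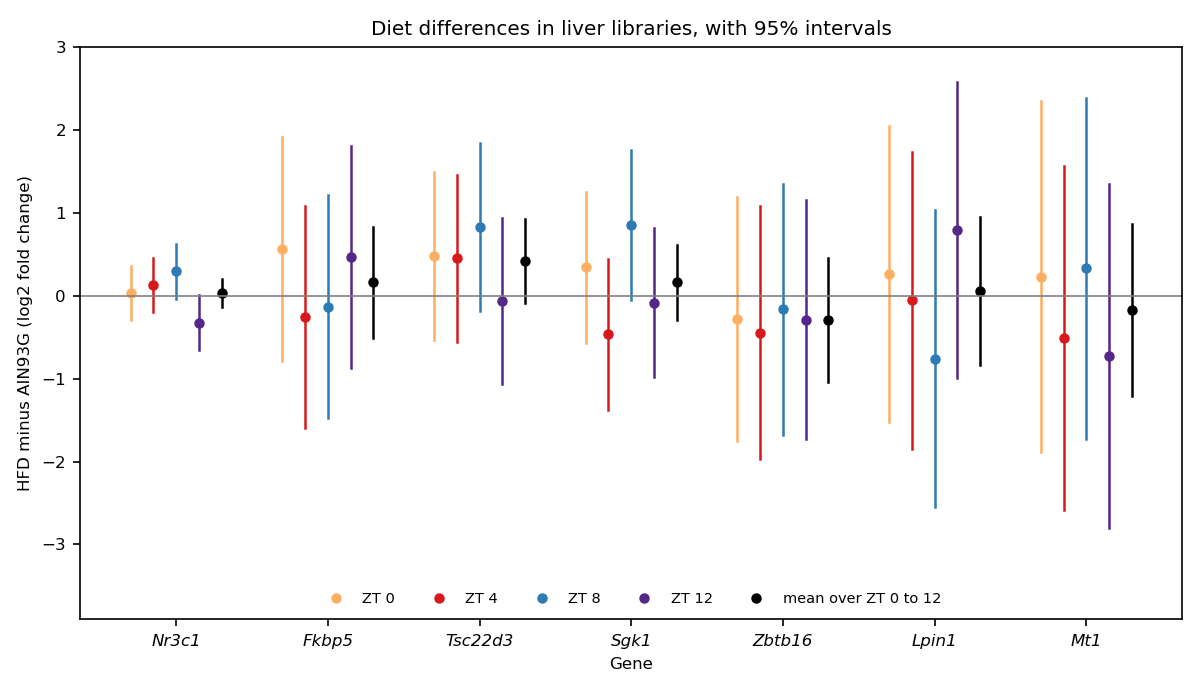
Difference between the diets (HFD minus AIN93G, log2 fold change, vertical axis) for the 7 genes tested, at ZT 0, 4, 8, and 12 and as the mean over them, with points for estimates and bars for 95% intervals from edgeR. Every interval includes 0, and those of Lpin1 and Mt1 are the widest.

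Nr3c1 encodes the glucocorticoid receptor itself. On AIN93G it was at 123, 122, and 135 CPM at ZT 0, at 114, 143, and 114 CPM at ZT 4, at 127, 110, and 115 CPM at ZT 8, and at 140, 129, and 130 CPM at ZT 12. On the HFD it was at 142, 122, and 130 CPM at ZT 0, at 143, 138, and 134 CPM at ZT 4, at 119, 134, and 187 CPM at ZT 8, and at 95.5, 123, and 97.9 CPM at ZT 12. At ZT 12 the 3 HFD libraries lay below the 3 AIN93G libraries, the one time point at which the receptor's diet groups did not overlap. The share of all genes separated in this way was not counted. The ZT 12 difference, -0.32 on the log2 scale (SE 0.16), had an unadjusted p of 0.0539 and an adjusted p of 0.666 by edgeR. It was -0.21 without AIN93G replicate 1 and -0.45 between the 3 libraries with low Arntl. In later HFD libraries Nr3c1 was at 132, 155, and 105 CPM at ZT 16 and at 138, 182, and 119 CPM at ZT 20, and its fitted 24 h cosine on the HFD had an amplitude of 0.07 on the log2 scale (edgeR adjusted p = 0.809, and 0.879 without ZT 12 and ZT 24).

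Fkbp5 encodes an immunophilin that binds the receptor complex and lowers its affinity for hormone, and it is itself induced by glucocorticoids. On AIN93G it was at 49.4, 58.7, and 74.4 CPM at ZT 0, at 89.0, 73.2, and 111 CPM at ZT 4, and at 124, 104, and 37.3 CPM at ZT 8. On the HFD it was at 71.1, 106, and 94.8 CPM at ZT 0, at 75.1, 66.3, and 92.6 CPM at ZT 4, and at 169, 40.96, and 29.5 CPM at ZT 8. At ZT 8 the libraries of each diet therefore differed widely, from 37.3 to 124 CPM on AIN93G and from 29.5 to 169 CPM on the HFD. At ZT 16 and ZT 20 on the HFD the gene lay between 55.9 and 128 CPM. Its HFD levels from ZT 0 to 20 gave an edgeR adjusted p of 0.509 for time, which was 0.923 without ZT 12 and 0.107 without the ZT 12 library with high Arntl.

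Tsc22d3, on chromosome X, differed widely between libraries of the same group. On AIN93G it was at 128, 113, and 74.1 CPM at ZT 0, at 69.8, 163, and 66.4 CPM at ZT 4, at 125, 99.5, and 52.9 CPM at ZT 8, and at 287, 167, and 173 CPM at ZT 12. On the HFD the ZT 8 libraries alone ran from 55.5 to 265 CPM and those of ZT 4 from 60.6 to 262 CPM. On AIN93G the 3 libraries of ZT 12 lay above all 9 libraries of ZT 0, 4, and 8, with an unadjusted p for time of 0.0432 and an edgeR adjusted p of 0.445. At ZT 16 on the HFD, where Xist, the X inactivation transcript, was at 1044, 109, and 0.606 CPM in replicates 1 to 3 (523 CPM or more in every other library), Tsc22d3 was at 176, 192, and 142 CPM, within its range at other times.

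Sgk1 encodes a serine and threonine kinase that glucocorticoids and mineralocorticoids induce and that acts on ion channels and transporters. One of its 6 RefSeq promoter windows (GRCm38.p6, chr10:21993640-21993939, + strand) is shown because it holds the paired glucocorticoid half-sites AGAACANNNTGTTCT, here in capitals together with an E-box (CACGTG), the element that the clock proteins bind. A further match to the half-site AGAACA, on the opposite strand, overlaps the E-box.

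Sgk1 window 5: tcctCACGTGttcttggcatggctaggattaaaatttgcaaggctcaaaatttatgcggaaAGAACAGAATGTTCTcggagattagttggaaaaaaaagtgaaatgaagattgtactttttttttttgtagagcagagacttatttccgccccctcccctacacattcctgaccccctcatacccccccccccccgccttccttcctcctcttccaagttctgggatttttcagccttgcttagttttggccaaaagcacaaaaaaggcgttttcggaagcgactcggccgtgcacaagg

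On both strands, the paired half-sites with this spacing of 3 bases were found in 3 of 32851 promoter windows of 300 bases (0.00913%), those of Acnat2, Gm35041, and Sgk1. The E-box was found in 7.15% of windows and the single half-site in 19%. A match describes the letters of the window and not occupancy. Of the other 7 genes, the RefSeq table gave windows for Fkbp5 (1, with an E-box), Tsc22d3 (3), Lpin1 (1), Mt1 (1), and Mt2 (1), and the paired half-sites were in none of these.

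In liver Sgk1 was at 12.6 to 77.2 CPM. Its highest HFD libraries were at ZT 8, at 58.4, 77.2, and 23.7 CPM, compared with 41.3, 19, and 23.2 CPM at ZT 0 and 20.3, 35.4, and 13.3 CPM at ZT 20. On AIN93G it was at 39.4, 25.8, and 20.97 CPM at ZT 8 and at 21.9, 27.96, and 14.5 CPM at ZT 0. On the HFD, ZT 20 against ZT 8 gave a log2 fold change of -1.22 (SE 0.44), with an unadjusted p of 0.0111 and an edgeR adjusted p of 0.146. At ZT 12 Sgk1 was even, at 30.7 to 36.7 CPM over the 6 libraries of both diets.

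Zbtb16 encodes the zinc finger repressor PLZF, which glucocorticoids induce in many tissues. On AIN93G it was at 19.6, 23.7, and 13.2 CPM at ZT 0 and at 12.5, 12.8, and 8.81 CPM at ZT 4. On the HFD it was at 14.9, 16.9, and 15.2 CPM at ZT 0 and at 7.43, 8.72, and 9.40 CPM at ZT 4. Over ZT 0 to 12 the edgeR adjusted p for time was 0.415 on AIN93G and 0.188 on the HFD. At ZT 16 on the HFD, replicate 2 stood at 59.2 CPM, compared with 9.29 and 11.9 CPM in the other 2, and ZT 16 against ZT 4 gave a log2 fold change of 1.70 (SE 0.74, edgeR adjusted p = 0.25). Without that replicate it was 0.35.

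Lpin1 encodes lipin 1, a phosphatidate phosphatase in triacylglycerol synthesis and a coactivator of fatty acid oxidation genes, and it was the only one of the 7 called for time. On the HFD it was at 262, 159, and 102 CPM at ZT 0, at 73.5, 125, and 56.7 CPM at ZT 4, and at 261, 173, and 177 CPM at ZT 8. It was at 1238, 1113, and 86.4 CPM at ZT 12, at 168, 336, and 117 CPM at ZT 16, and at 59.9, 62.0, and 55.7 CPM at ZT 20. The 3 libraries of ZT 20 were the most alike of any HFD group, and every one lay below every library of ZT 0, 8, 12, and 16.

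Over ZT 0 to 20 on the HFD the edgeR test for time gave an adjusted p of 0.042 for Lpin1, 1 call among 7 genes where the background was 5.28%. Mt1 was not called by edgeR (adjusted p = 0.124) but was by DESeq2, which called 2 of 7 and 14.3% of all genes. The Lpin1 call rested on ZT 12 and on single libraries. Without ZT 12 in both diets its adjusted p was 0.105, and it was lost on leaving out any of 14 of the 18 libraries compared (adjusted p from 0.00713 to 0.172 over the 18). It held without HFD replicate 1 of ZT 0, replicate 2 of ZT 8, replicate 3 of ZT 12, or replicate 2 of ZT 16. With limma on log2 CPM, an alternative added later, it was not called (adjusted p = 0.178). On AIN93G Lpin1 was at 106, 277, and 48.1 CPM at ZT 0, at 124, 46.8, and 85.9 CPM at ZT 4, at 205, 665, and 170 CPM at ZT 8, and at 1153, 37.6, and 161 CPM at ZT 12. Those levels gave an edgeR adjusted p of 0.424 for time.

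Within ZT 12, 5 of the 7 genes with enough counts lay in separate ranges in the libraries with low and with high Arntl. Fkbp5 was at 272, 219, and 233 CPM in the 3 libraries with low Arntl (AIN93G replicate 1, HFD replicates 1 and 2) and at 33.1, 52.4, and 59.5 CPM in the 3 with high Arntl (AIN93G replicates 2 and 3, HFD replicate 3). Zbtb16 was at 81.7, 53.8, and 31.6 CPM against 7.45, 25.4, and 10.9 CPM, and Mt1 was at 385, 130, and 116 CPM against 15.9, 20.0, and 20.7 CPM, in the same order of libraries. Together with Lpin1 (1113 CPM or more against at most 161 CPM) and Tsc22d3 (208 CPM or more against at most 177 CPM), 5 of 7 genes had ranges that did not overlap, and all 5 were higher in the low-Arntl libraries. Among all genes, 29.8% had ranges that did not overlap in this split, with 8.3% higher and 21.5% lower in the low-Arntl libraries. These are sets of 3 samples formed from the data and not groups of the study, so no test was made. Nr3c1 and Sgk1 overlapped between the sets. Of 10 lists of cell type markers, 4 also had summed levels that did not overlap, all lower in the low-Arntl libraries. Kupffer cell markers (6 of 6 with a median over 1 CPM) were at 278 to 387 against 420 to 547 CPM, sinusoidal endothelial markers (5 of 5) at 134 to 184 against 199 to 225 CPM, mammary epithelial markers (3 of 8) at 191 to 239 against 281 to 329 CPM, and lymphocyte markers (0 of 8) at 2.73 to 4.20 against 5.03 to 6.22 CPM. No marker of these lists was at 0 in all 32 liver libraries. With 3 of 8 and 0 of 8 markers over 1 CPM, the mammary and lymphocyte sums cannot be read as amounts of those cells. The part of the 4 sums in the levels of the 5 genes was not tested.

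Of the same 5 genes, Lpin1, Zbtb16, and Mt1 were higher in both liver libraries of ZT 24, which also had low Arntl, than in every liver library of ZT 0. Among all genes, 29.9% had ranges that did not overlap between these 2 and those 6 libraries, with 8.04% higher at ZT 24. There Lpin1 was at 577 CPM on AIN93G and 1054 CPM on the HFD, Fkbp5 at 90.1 and 171 CPM, Zbtb16 at 36.4 and 66.0 CPM, and Mt1 at 307 and 151 CPM. At ZT 0, the same clock hour if the labels hold, the highest liver library was at 277 CPM for Lpin1, 106 CPM for Fkbp5, 23.7 CPM for Zbtb16, and 40.5 CPM for Mt1. Fkbp5 at ZT 24 on AIN93G was thus within its range at ZT 0, as was Tsc22d3 at ZT 24 (205 and 210 CPM, against up to 224 CPM at ZT 0). Pearson's r with Arntl (log2 scale), with Spearman's rho in brackets, was taken over the 32 liver libraries, which share time of day as well. It was -0.81 [-0.74] for Mt1, -0.75 [-0.61] for Lpin1, -0.40 [-0.42] for Fkbp5, and -0.32 [-0.15] for Sgk1. For Zbtb16 it was -0.25 [-0.08], for Tsc22d3 -0.15 [-0.15], and for Nr3c1 0.01 [0.01]. Fkbp5 and Zbtb16 were low in several ZT 8 libraries despite low Arntl there, as the plots against Arntl show.

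**Figure D3:**
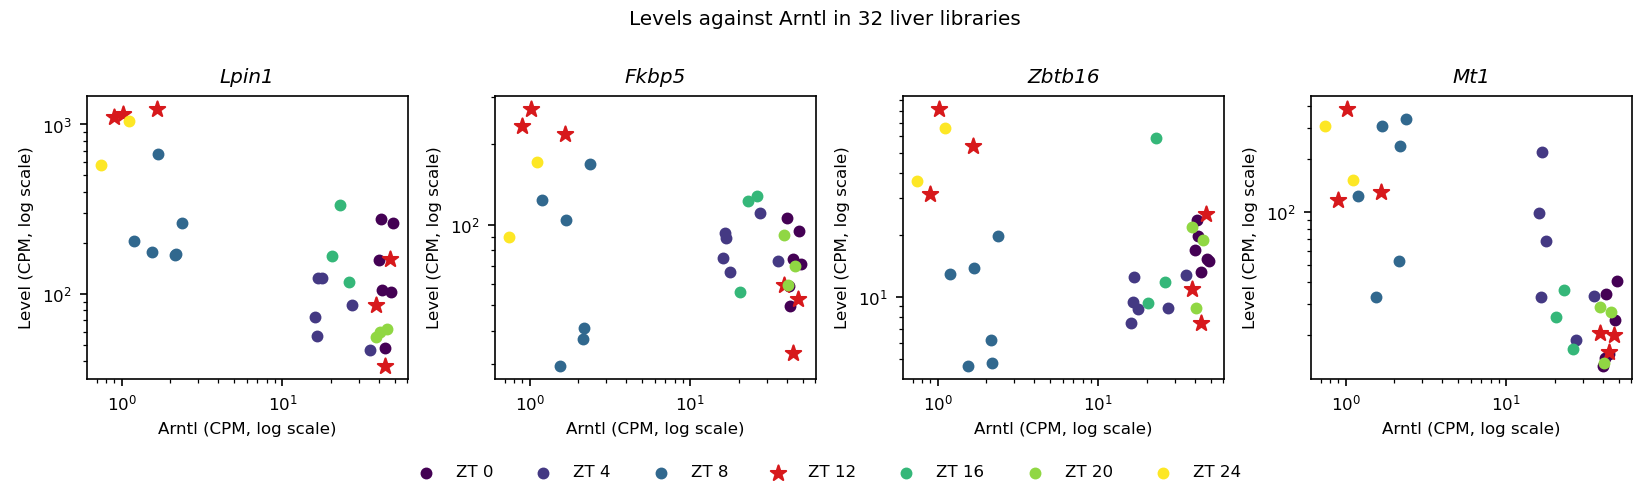
Levels of Lpin1, Fkbp5, Zbtb16, and Mt1 (CPM, log axis) against Arntl (CPM, log axis) in the 32 liver libraries, coloured by Zeitgeber time with the 6 libraries of ZT 12 as red stars. At ZT 12, the 3 libraries with Arntl between 0.898 and 1.67 CPM lie above the 3 with Arntl between 38.4 and 47.0 CPM in all 4 panels.

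When the 3 ZT 12 libraries with Arntl over 10 CPM were left out, an alternative chosen after their values had been seen, more of the 7 genes were called for time. Over ZT 0 to 12 on AIN93G, edgeR then called Lpin1 (adjusted p = 0.00202), Zbtb16 (0.0140), and Mt1 (0.0389), where 6.35% of all genes were called, against 0 of 7 with all libraries (background 0.758%, unadjusted p under 0.05 in 3, DESeq2 0). Over ZT 0 to 12 on the HFD it called Lpin1 (0.000351) and Zbtb16 (0.0293), where 9.1% of all genes were called, against 0 of 7 with all libraries (background 1.67%, unadjusted p under 0.05 in 3, DESeq2 1). On AIN93G this left 1 library at ZT 12, whose spread was taken to be that of the other groups. For diet at ZT 12, the diet mean, and the interaction, edgeR still called 0 of 7 without these libraries. The diet difference at ZT 12, then between 1 AIN93G and 2 HFD libraries, went from 0.47 to -0.35 for Fkbp5, from -0.06 to -0.52 for Tsc22d3, from -0.09 to -0.25 for Sgk1, from -0.29 to -1.03 for Zbtb16, from 0.79 to -0.06 for Lpin1, and from -0.73 to -1.73 for Mt1 on the log2 scale.

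Mt1 and Mt2 encode the metallothioneins of liver and lie side by side on chromosome 8, with 5513 bases between the end of Mt2 (chr8:94172664-94173568, + strand) and the start of Mt1 (chr8:94179082-94180327, + strand). Their promoter windows (GRCm38.p6, chr8:94178839-94179138 and chr8:94172368-94172667, + strand) are shown because both hold several copies of the metal response element core, searched as TGCACNC or TGCGCNC on both strands and given in capitals.

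Mt1 window: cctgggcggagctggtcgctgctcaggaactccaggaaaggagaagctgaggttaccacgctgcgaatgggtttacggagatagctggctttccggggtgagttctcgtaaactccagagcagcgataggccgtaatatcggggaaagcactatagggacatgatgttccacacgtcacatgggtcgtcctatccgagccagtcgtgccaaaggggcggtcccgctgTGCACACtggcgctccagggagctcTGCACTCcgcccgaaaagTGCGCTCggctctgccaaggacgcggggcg

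Mt2 window: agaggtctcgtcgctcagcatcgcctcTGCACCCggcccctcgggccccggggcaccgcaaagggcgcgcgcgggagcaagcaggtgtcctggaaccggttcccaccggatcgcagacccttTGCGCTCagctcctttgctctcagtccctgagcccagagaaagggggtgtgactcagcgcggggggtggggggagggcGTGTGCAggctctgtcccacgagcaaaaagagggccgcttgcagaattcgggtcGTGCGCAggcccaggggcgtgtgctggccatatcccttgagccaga

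The window of Mt1 held 3 matches and that of Mt2 held 4, of which 2 are on the opposite strand. At least 1 match was present in 25.7% of the 32851 windows, so 1 match alone is common.

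Mt1 reached its highest liver levels at ZT 8, in low-Arntl libraries of ZT 12, and at ZT 24. On AIN93G it was at 34.1, 14.8, and 15.5 CPM at ZT 0, at 218, 33.2, and 18.7 CPM at ZT 4, and at 123, 308, and 52.4 CPM at ZT 8. On the HFD it was at 40.5, 13.4, and 24.4 CPM at ZT 0, at 98.1, 68.6, and 32.7 CPM at ZT 4, and at 335, 236, and 32.7 CPM at ZT 8. On AIN93G every ZT 8 library exceeded every ZT 0 library, and on the HFD 2 of 3 did. By ZT 16 and ZT 20 on the HFD all 6 libraries lay between 13.8 and 36.3 CPM.

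Despite the size of these differences, none of the pairwise tests of Mt1 passed. ZT 8 against ZT 0 gave a log2 fold change of 2.94 (SE 1.08, edgeR adjusted p = 0.164) on AIN93G and 3.04 (SE 1.08, adjusted p = 0.137) on the HFD, and ZT 20 against ZT 8 on the HFD gave -3.12 (SE 1.09, adjusted p = 0.128). These tests called 0 of 7 genes each, against a background of 1.61%, 1.9%, and 2.42%, and ZT 16 against ZT 4 on the HFD likewise called 0 of 7 (1.59%). Unadjusted p-values were under 0.05 for 1, 2, 2, and 1 of the 7 in that order. DESeq2 called Mt1 for ZT 20 against ZT 8 (4.78% of all genes called) and none in the other 3. A 24 h cosine over the 19 HFD liver libraries called 0 of 7 (background 3.06%, unadjusted p under 0.05 for Mt1 and Sgk1), with Mt1 nearest at an adjusted p of 0.0567, a fitted peak at ZT 7.27, and a peak-to-trough ratio of 7.10. Without ZT 12 and ZT 24, an alternative added later, the cosine of Mt1 passed with an edgeR adjusted p of 0.00225. Its peak was then at ZT 8.60 and its ratio 9.65, and 8.6% of all genes were called. Without ZT 12 alone, the cosine called none of the 7 genes and 3.57% of all genes. With all 19 libraries, DESeq2 called the cosine of Mt1 (7.28% of all genes), whereas limma did not. For Lpin1 the cosine had an adjusted p of 0.603, and of 0.0356 without the ZT 24 library.

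Mt2 was counted far below Mt1. It had at most 56 counts in a liver library and 3 counts or fewer in 18 of the 32, with none in any of the 3 HFD libraries of ZT 16 (a count of 0 allows up to 3 counts, for counting error alone). Of its 588 exonic bases, 432 (73.5%) overlap Gm45774, an antisense gene that had 0 to 45 counts. The strand setting of the counting is not given in the sources used here, so whether reads of Mt2 and Gm45774 were separated is not known. The part of this overlap in the low counts of Mt2 was not tested. Where Mt2 was highest, Mt1 was high too. Mt2 was at 3.19 CPM in AIN93G replicate 1 of ZT 12 and 2.47 CPM in the AIN93G liver library of ZT 24, the libraries in which Mt1 stood at 385 and 307 CPM. Over the 32 liver libraries, Pearson's r of Mt2 with Mt1 was 0.81 on the log2 scale after adding 0.1 CPM (Spearman's rho 0.73). With the overlapping Gm45774 it was 0.63 (rho 0.52). The exons of the other 7 genes overlap those of no other gene.

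Among themselves, the 7 genes fell into pairs of unequal likeness over the 32 liver libraries, which share time of day and depth. Pearson's r of log2 CPM, with Spearman's rho in brackets, was 0.74 [0.60] for Fkbp5 and Zbtb16, 0.69 [0.72] for Sgk1 and Tsc22d3, 0.68 [0.54] for Lpin1 and Zbtb16, 0.66 [0.62] for Lpin1 and Mt1, and 0.63 [0.44] for Fkbp5 and Lpin1, so the order of these pairs depended on the measure. Summed marker levels moved with some of the same genes. The sum of the mammary epithelial list (3 of 8 with a median over 1 CPM) had an r of -0.62 with Zbtb16, -0.55 with Fkbp5, and -0.51 with Lpin1. That of the adipocyte list (5 of 10 with a median over 1 CPM, 695 to 2643 CPM in all) had -0.55 with Fkbp5. Adipoq itself had a liver median of 0.0673 CPM and reached at most 5.01 CPM. These sums cannot be read as amounts of mammary or adipose cells. The part of the sums in these likenesses was not tested. Sgk1 and Fkbp5, both induced by glucocorticoids elsewhere, had an r of 0.06. Nr3c1 had an r between -0.13 and 0.14 with every other gene of the 7.

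**Figure D4:**
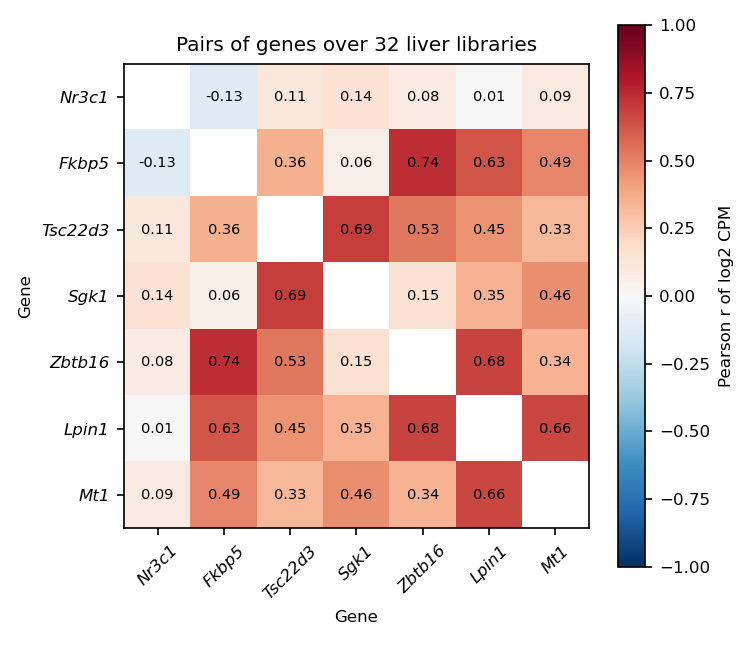
Pearson's r of log2 CPM between each pair of the 7 genes over 32 liver libraries, from blue (negative) to red (positive). The row of Nr3c1 is pale throughout (-0.13 to 0.14), and the pair of Fkbp5 and Zbtb16 is the darkest (0.74).

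The genes whose profile was most like each of the 7, among the 12000 tested and outside the 8, were given by Pearson's r over the same 32 libraries, with Spearman's rho in brackets. Lpin1 was most like Arhgef26 (0.90 [0.83]), Foxo1 (0.88 [0.74]), and Snx10 (0.87 [0.75]). Mt1 was most like Sds (0.88 [0.85]), Etnk2 (0.85 [0.85]), and Pcsk4 (0.84 [0.79]). Fkbp5 was most like St3gal5 (0.84 [0.79]), Pex11a (0.81 [0.72]), and Cebpd (0.80 [0.69]), and Tsc22d3 was most like Tcim (0.82 [0.85]), Ddit4 (0.82 [0.85]), and Tat (0.80 [0.81]). Foxo1 is a transcription factor of fasting metabolism, Sds is the serine dehydratase of gluconeogenesis, and Tat is the tyrosine aminotransferase long used as a glucocorticoid-induced enzyme of liver. Zbtb16 was most like Zpr1 (0.77 [0.61]), Arhgef26 (0.77 [0.60]), and Plin4 (0.76 [0.71]). Nr3c1 was most like Arl13b (0.81 [0.80]), Rel (0.81 [0.77]), and Pcgf3 (0.80 [0.69]). Sgk1 had the lowest values, with Rasgef1b (0.70 [0.69]), Ms4a6b (0.69 [0.71]), and Clec1b (0.67 [0.59]).

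Genes around the receptor and around metal handling were taken from lists written by hand. For the diet mean over ZT 0 to 12, edgeR called 0 of 15 genes of receptor machinery and steroid handling, 0 of 18 other glucocorticoid-responsive genes, 0 of 16 metal handling genes, 0 of 10 relatives of the 8 genes, and 0 of 11 acute phase genes. Unadjusted p-values were under 0.05 for 2, 1, 1, 1, and 6 of these, and for 1007 of the 12000 genes tested. The 6 acute phase genes went both ways, with Saa1 (0.78), Saa2 (0.57), Saa3 (0.56), and Hp (0.29) above 0 and Orm1 (-0.45) and Fgb (-0.25) below 0 on the log2 scale, and they were named after their values were seen. The median log2 fold change was 0.31 for the other glucocorticoid-responsive genes and 0.29 for the acute phase genes, compared with -0.01 over all genes tested and 0.06 for the 7 genes.

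In the receptor list, time differences passed the test for a few of the 15 members. For ZT 8 against ZT 0, edgeR called 1 of 15 on AIN93G (background 1.61%) and 2 of 15 on the HFD (1.9%). On the HFD it called 3 of 15 for ZT 20 against ZT 8 (2.42%) and 1 of 15 for ZT 16 against ZT 4 (1.59%). Nr3c2, the mineralocorticoid receptor, was higher at ZT 8 than at ZT 0 on AIN93G (log2 fold change 1.31, SE 0.32, edgeR adjusted p = 0.0365) and on the HFD (1.30, SE 0.32, 0.0345). Serpina6, the corticosteroid-binding globulin of plasma, rose likewise on the HFD (1.61, SE 0.38, 0.0266). On the HFD the cochaperones Fkbp4 (0.83, SE 0.16, 0.00612) and Stip1 (0.92, SE 0.18, 0.00834) were higher at ZT 20 than at ZT 8, and Nr3c2 was lower (-1.17, SE 0.32, 0.0495). Hspa8, a heat shock chaperone, was higher at ZT 16 than at ZT 4 (0.99, SE 0.21, 0.0147). Over ZT 0 to 20 on the HFD, 3 of 15 were called (Fkbp4, Stip1, and Hspa8) against 5.28% of all genes, and 3 of 15 in the cosine (Stip1, Serpina6, and the corepressor Nrip1) against 3.06%.

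Among the 18 other glucocorticoid-responsive genes, Cdkn1a, the cell cycle inhibitor p21, was lower at ZT 8 than at ZT 0 on AIN93G (log2 fold change -3.09, SE 0.70, edgeR adjusted p = 0.0253) and on the HFD (-3.21, SE 0.69, 0.0206). It was 1 of 18 called in each of these comparisons, whose background was 1.61% and 1.9%, and Klf9 was 1 of 18 called in the cosine (adjusted p = 0.0368), whose background was 3.06%. In the metal list, 3 of 16 genes were lower at ZT 8 than at ZT 0 on AIN93G (background in either direction, 1.61%), among them Gclc, which takes part in glutathione synthesis (-1.03, SE 0.26, 0.0415). Slc11a2, an iron and divalent metal transporter, was another of them (-0.93, SE 0.18, 0.0128) and on the HFD (-0.81, SE 0.18, 0.0206). Slc30a1, the zinc exporter that responds to the same metal element as the metallothioneins, was higher at ZT 8 than at ZT 0 on the HFD (0.87, SE 0.23, 0.0467). There 2 of 16 were called, against 1.9% of all genes. On the HFD, ZT 16 against ZT 4 and ZT 20 against ZT 8 called 1 of 16 each, against 1.59% and 2.42% of all genes. Slc39a10, a zinc importer, was lower at ZT 8 than at ZT 0 on AIN93G (-1.06, SE 0.23, 0.0190) and higher at ZT 16 than at ZT 4 on the HFD (1.02, SE 0.23, 0.0244), and the zinc and manganese exporter Slc30a10 was higher at ZT 20 than at ZT 8 (1.89, SE 0.52, 0.0495).

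Among relatives of the 8 genes, Sgk2, a kinase of the family of Sgk1, was higher at ZT 8 than at ZT 0 on AIN93G (log2 fold change 1.38, SE 0.36, edgeR adjusted p = 0.0479, background 1.61%), was not called for that contrast on the HFD (0.61, adjusted p = 0.359), and was lower at ZT 16 than at ZT 4 on the HFD (-1.58, SE 0.36, 0.0247, background 1.59%). Over ZT 0 to 20 on the HFD, 3 of 10 relatives were called (Fkbp4, Sgk2, and Sgk3) against 5.28% of all genes. No acute phase gene was called between time points pairwise, and 1 of 11, Lbp, was called for time over ZT 0 to 20 on the HFD (adjusted p = 0.0372), where 5.28% of all genes were. Of the other metallothioneins, Mt3 and Mt4 had 0 counts in all 32 liver libraries, and Mtf1, the factor that binds the metal response element, was even, at 14.1 to 26.7 CPM.

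In the 10 adipocyte-rich libraries the genes are described apart. Nr3c1 was at 177 to 295 CPM, and each of the 10 exceeded 30 of the 32 liver libraries. Sgk1 was highest in the 2 HFD libraries of ZT 24, at 112 and 126 CPM, and Zbtb16 was at 342 CPM in AIN93G replicate 1 of ZT 24, where Fkbp5 stood at 290 CPM. At ZT 16 and ZT 20, where all AIN93G libraries were adipocyte-rich and all HFD libraries liver, diet and tissue cannot be told apart. There, 0 of 7 genes had ranges that did not overlap, where the background was 64.7% of genes. Between ZT 20 and ZT 16 in the AIN93G libraries, edgeR called 0 of 7 (background 0.00711%, unadjusted p under 0.05 in 1, DESeq2 0), with Mt1 at 93.2, 134, and 67.9 CPM at ZT 16 and 61.3, 36.6, and 36.2 CPM at ZT 20 (log2 fold change -0.96, SE 0.34, adjusted p = 0.679).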

How the data were processed

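Liver RNA from 42 mice was sequenced as paired-end poly(A) libraries. The authors deposited raw read counts per gene, and the submitters' processing notes name fastp, STAR, HTSeq 0.6.1, DESeq, STAR-Fusion, and mm10. Libraries were grouped by labelled diet and time, and those with Alb under 10000 CPM were analysed apart. Counts were scaled by TMM, filtered at a mean count of 25, and tested with the edgeR 4.0.16 quasi-likelihood test in R 4.3.3 with Benjamini-Hochberg adjustment at 0.05, over 32 liver libraries in 12 groups, 10 adipocyte-rich libraries, or 19 HFD liver libraries (24 h cosine). Tests were checked on simulated counts. Alternatives were DESeq2 1.42.0, limma 3.58.1, library size scaling, other filters, the 6 libraries of a time point alone, and leaving out libraries or times. Members and lists were chosen with earlier results of these data known. All 8 members were named, with up to 2 called genes per list, direction, and comparison, further genes where few were called, and the 3 most alike genes per member. Each library is 1 labelled mouse. Intervals on counts cover counting error only, and unstranded kits cannot separate antisense genes.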

Additional observations from a re-analysis of the deposited data

How the results depend on the processing

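No paired analysis was possible because any 2 groups compared share at most 1 of the numbers in the sample titles, whose meaning is not given, and the diets share 0. Since 8 of the numbers stand on more than 1 library, limma was also run with an estimated correlation between such libraries (0.0181 in the liver fit, 0.0158 for the cosine), and it called 0 members in each liver comparison, as did limma without it. Both lost Lpin1 over ZT 0 to 20 on the HFD (0 against 1). Of 270 alternatives to the 15 counts of genes called, 231 kept the count and 39 moved it. No alternative called any of them for diet or the interaction. Unless given, the cause of a move was not tested.

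With no filter on low counts, which also tested Mt2, edgeR called 4 genes for time on AIN93G, 5 for time on the HFD over ZT 0 to 12 and 6 over ZT 0 to 20 (with Mt2), 1 for ZT 8 against ZT 0 on AIN93G and 2 on the HFD, 1 for ZT 16 against ZT 4, 4 for ZT 20 against ZT 8 (with Mt2), and 2 for the cosine (Mt1 and Mt2). The share of all genes called was then 2.87%, 3.78%, 5.71%, 2.54%, 2.08%, 1.56%, 2.12%, and 1.77%, in that order. DESeq2 called 1 (HFD ZT 0 to 12), 2 (HFD ZT 0 to 20), 1 (ZT 20 against ZT 8), and 1 (cosine). In that order it called 7.94%, 14.3%, 4.78%, and 7.28% of all genes. Library size scaling gave 1 for the cosine (3.16% of all genes). Without the ZT 12 libraries with Arntl over 10 CPM, chosen after seeing the data, counts were 3 for time on AIN93G, 2 and 3 for time on the HFD over ZT 0 to 12 and ZT 0 to 20, and 1 for the cosine. The share of all genes called was 9.1% and 13.2% for these HFD tests of time and 6.56% for this cosine. The cosine called 2 without ZT 24 (Lpin1 and Mt1, 8.52% of all genes), 1 without ZT 12 and ZT 24 (8.6%), and 0 without ZT 12 alone (3.57%). Without ZT 12, edgeR called Mt1 (adjusted p = 0.0228) in place of Lpin1 for time on the HFD over ZT 0 to 20, with 8.61% of all genes. Leaving out 1 library in turn gave 0 to 1 for time on the HFD over ZT 0 to 12 (Lpin1 without HFD replicate 3 of ZT 12, adjusted p = 0.0164), 0 to 1 over ZT 0 to 20, 0 to 2 for the cosine, and 0 to 0 elsewhere.

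The uncalled diet mean of Lpin1 turned from 0.06 to -0.18 and that of Mt1 from -0.17 to 0.02 (log2) without ZT 12, and those of Lpin1 and Fkbp5 were -0.15 and -0.04 without the ZT 12 libraries with Arntl over 10 CPM. Leaving out libraries with Y-linked counts was not run, since the highest sum was 0.314 CPM. Mt2 had too few counts for the filter used.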

Other observations

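At ZT 16 on the HFD, Xist was at 0.606 CPM in replicate 3 and 109 CPM in replicate 2, while the sum of Y-linked genes was at most 0.314 CPM in any of the 42 libraries. Tsc22d3, which lies on the X chromosome, was at 142 CPM in replicate 3. Whether X dosage differed in these libraries was not tested.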
